A study of Mus musculus with 29 samples.

Results

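Maternal-effect genes are transcribed by the oocyte, and their products are needed by the embryo after fertilization. The 10 genes described here are Nlrp5, Ooep, Padi6, Khdc3, Tle6, Zar1, Npm2, Nlrp14, Nlrp2 and Nlrp4f. They were taken as a named list, and all 10 were found among the 51912 gene IDs of the deposited table of estimated counts. Their levels were measured by bulk RNA sequencing in 29 libraries of cells dissociated from mouse ovaries. Wild-type ovaries, labelled Cdkn1b +/+, gave 4 libraries at each of 4 ages. Ovaries labelled Cdkn1b -/-, called Cdkn1b-null here, gave 4 libraries at E18.5 and 3 at each of the other ages. E13.5 and E18.5 are days of embryonic development, PND8 is a postnatal day, and 12wk is an age in weeks. Cdkn1b encodes p27Kip1, an inhibitor of cyclin-dependent kinases, and the study addressed how cell cycle regulation bears on the developing ovary. All groups shared the papain dissociation and the column extraction of total RNA, and strain, littermates and pooling of animals are not given in the sources used here.

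In the mouse, Nlrp5 (also called Mater), Ooep (Floped), Tle6 and Khdc3 (Filia) encode core proteins of the subcortical maternal complex, an assembly under the oocyte surface that the embryo needs for its early cleavages. Padi6 encodes an oocyte member of the peptidylarginine deiminase family and is required for the cytoplasmic lattices of the oocyte. Nlrp2, Nlrp4f and Nlrp14 belong to the same NOD-like receptor family as Nlrp5. Zar1 encodes an RNA-binding protein of the oocyte, and Npm2 encodes nucleoplasmin 2, a histone chaperone. In the ovary these genes are known for transcription in growing oocytes, after primordial follicles are activated. At E13.5 the female germ cells are entering meiosis, at E18.5 most are in late meiotic prophase, at PND8 primordial and early growing follicles are present, and at 12wk the ovary is adult.

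Several promoters of the set were printed because most of its members were higher at PND8 than at E18.5. RefSeq's table of promoters on GRCm38.p6 held entries for 8 of the 10 genes, with 10 start sites in all. The 3 windows shown are those whose start site coincided with the 5′ end of the gene in the GENCODE M21 annotation. Each runs 5′ to 3′ on the strand of the gene over the 250 bases before the start site, and capitals mark the motif CANNTG. This E-box motif is the kind of site bound by basic helix-loop-helix factors, which include the oocyte factors FIGLA and SOHLH1.
Nlrp5, chr7:23385639-23385888, plus strand: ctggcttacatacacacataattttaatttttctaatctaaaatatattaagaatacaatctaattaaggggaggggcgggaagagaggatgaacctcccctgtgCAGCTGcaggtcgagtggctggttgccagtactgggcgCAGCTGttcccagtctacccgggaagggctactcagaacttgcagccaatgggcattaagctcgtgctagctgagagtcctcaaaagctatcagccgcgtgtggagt
Padi6, chr4:140742644-140742893, minus strand: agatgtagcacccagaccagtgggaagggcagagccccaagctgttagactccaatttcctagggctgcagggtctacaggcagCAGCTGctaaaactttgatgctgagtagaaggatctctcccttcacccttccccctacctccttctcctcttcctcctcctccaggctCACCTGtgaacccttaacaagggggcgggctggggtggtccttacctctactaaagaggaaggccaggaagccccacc
Nlrp2, chr7:5351036-5351285, minus strand: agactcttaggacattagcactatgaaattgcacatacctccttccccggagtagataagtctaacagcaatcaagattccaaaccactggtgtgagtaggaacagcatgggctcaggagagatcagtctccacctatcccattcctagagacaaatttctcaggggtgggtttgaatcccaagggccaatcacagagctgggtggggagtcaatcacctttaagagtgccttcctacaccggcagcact
The Nlrp5 window held 2 matches, both CAGCTG, beginning 145 and 107 bases before the start site. The Padi6 window held CAGCTG at 166 and CACCTG at 78 bases before it, and the Nlrp2 window held none. Over all 10 member windows 9 held at least 1 CANNTG, against 66.2% of the 32851 windows of 250 bases in the table, so a match was common everywhere. The motif TAATTG or its reverse complement CAATTA, a homeobox core, was in 1 member window (Ooep) and in 7.17% of all windows. TATAAA or TTTATA was in 1 member window, the second RefSeq start site of Nlrp5, and in 12.4% of all windows. CANNTG has the same form on both strands, and the other motifs were searched on both. A match describes the letters only.

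In GENCODE M21 coordinates on GRCm38, Nlrp5 (ENSMUSG00000015721) lies on chromosome 7 from 23385889 to 23441922, Nlrp14 (ENSMUSG00000016626) from 107166990 to 107198102 and Nlrp2 (ENSMUSG00000035177) from 5298547 to 5351035 on the same chromosome. Ooep (ENSMUSG00000032346) lies on chromosome 9 from 78376109 to 78378725, and Khdc3 (ENSMUSG00000092622) on the same chromosome from 73101836 to 73104438. Padi6 (ENSMUSG00000040935) spans 140727355 to 140742643 on chromosome 4. Tle6 (ENSMUSG00000034758) spans 81590904 to 81601073 on chromosome 10. Zar1 (ENSMUSG00000063935) spans 72576806 to 72581254 on chromosome 5, and Npm2 (ENSMUSG00000047911) spans 70647302 to 70659244 on chromosome 14. Nlrp4f (ENSMUSG00000032999) spans 65177111 to 65205977 on chromosome 13. The deposited counts are RSEM estimates, and values that are not whole arise where reads are divided among genes. Among the values above 0, 90.9% were not whole for Nlrp5, 56.5% for Nlrp4f, 35.7% for Khdc3 and 31.0% for Zar1. The levels of these 4 are less certain, and which genes they shared reads with was not tested. The values of the other 6 genes were all whole.

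The libraries held between 14.1 M and 48.2 M counts, with 14.1 M to 24.9 M before birth and 24.1 M to 48.2 M after it. The file headers carry the word combined without saying which libraries were combined. A batch that follows age could therefore not be told apart from age. Levels are given as CPM, the count scaled per M of TMM-adjusted library size, and 3 counts, taken as the lowest level that the depth can show, correspond to 0.07 to 0.227 CPM. These floors cover counting error only. The targeted gene served as a check of the labels. At E13.5 Cdkn1b was at 22.8 ± 3.01 CPM (SD, n = 4) in wild type and 4.49 ± 0.203 (n = 3) in Cdkn1b-null ovaries. At E18.5 it was at 103.0 ± 13.6 and 12.7 ± 2.65 (n = 4 each), at PND8 at 148.5 ± 18.5 (n = 4) and 71.7 ± 8.3 (n = 3), and at 12wk at 183.3 ± 68.4 (n = 4) and 51.2 ± 8.55 (n = 3). At every age all Cdkn1b-null libraries were below all wild-type libraries, although the gene was not at 0. Red cell RNA set 1 library apart: the summed CPM of 6 erythroid genes was 135212.9 in wild-type replicate 3 at E13.5 and 4435.4 to 9386.7 in the other libraries of that age.

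PND8 was the age with the highest mean level of all 10 genes in both genotypes. In wild type 5 of the 10 had 0 to 6 counts per library at E18.5, while Tle6 was already abundant before birth. At 12wk levels were far lower again, and they ranged widely between wild-type libraries.

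**Figure D1:**
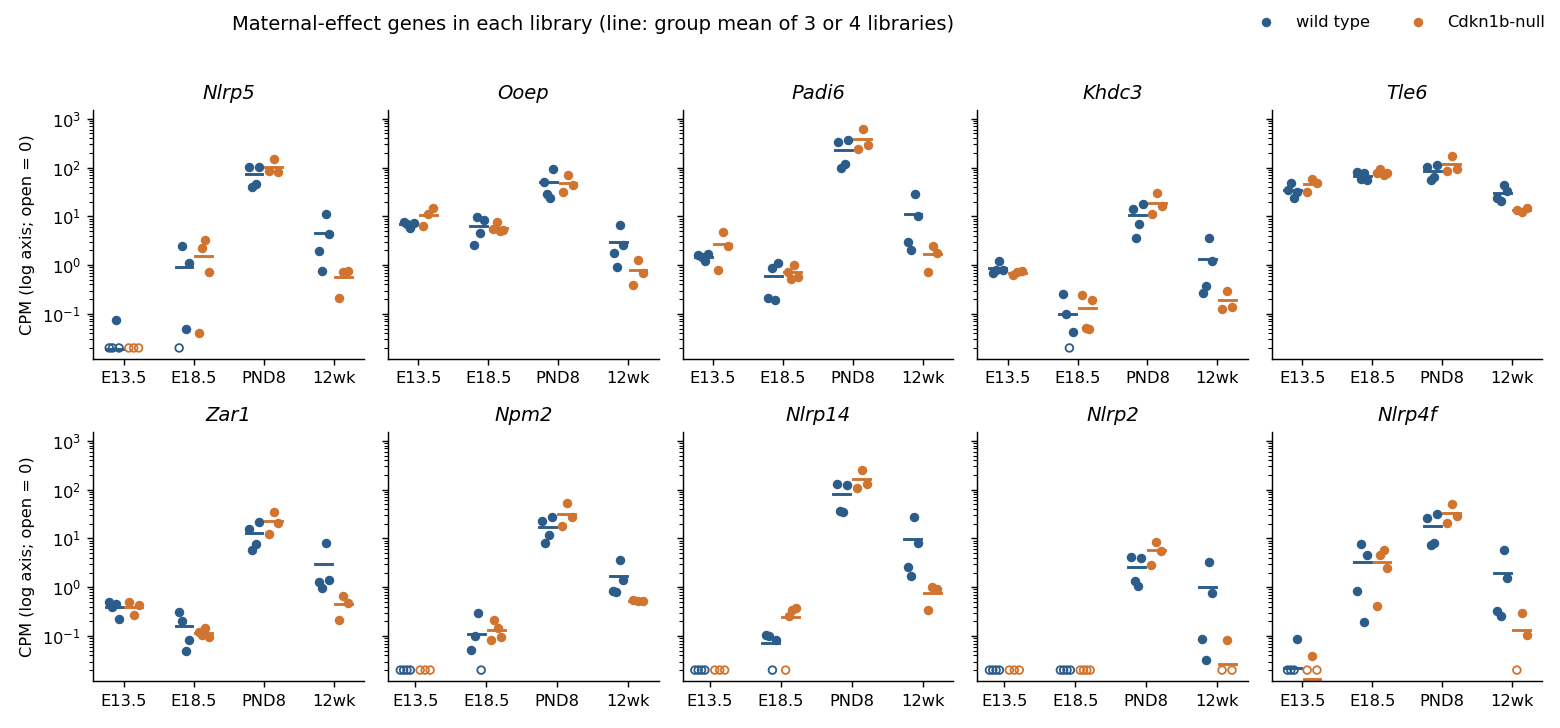
Level of each of the 10 maternal-effect genes in every library, as CPM on a log axis, by age. Filled points are libraries, open points are libraries at 0 (placed at the foot of the axis), blue is wild type (n = 4 per age), orange is Cdkn1b-null (n = 3, or 4 at E18.5), and lines are group means; in every panel the highest group means are those of PND8, where Padi6 reached 625.4 CPM.

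Per kilobase of exon, the scale on which genes can be compared, the order of levels changed with age. At E13.5 in wild type Tle6 led with 11.1 ± 3.29 CPM per kb (SD, n = 4), followed by Ooep with 3.2 ± 0.407, Padi6 with 0.591 ± 0.0861, Khdc3 with 0.424 ± 0.114 and Zar1 with 0.113 ± 0.0352. Only Padi6 and Khdc3 overlapped among these neighbours, and the other 5 genes were at 1 count or 0 in all but 1 library, where Nlrp4f had 2 counts. At PND8 in wild type Padi6 stood first with 89.3 ± 55.2 CPM per kb, and its range did not overlap that of Tle6 with 26.9 ± 8.87. Tle6, Ooep (23.1 ± 15.0), Nlrp14 (23.0 ± 15.0), Npm2 (16.7 ± 8.55) and Nlrp5 (14.9 ± 7.03) followed with overlapping ranges between neighbours. Khdc3 (5.11 ± 3.12), Nlrp4f (4.74 ± 3.22) and Zar1 (3.66 ± 2.13) came next, also with overlapping ranges. Nlrp2 was last with 0.754 ± 0.468, below Zar1 without overlap. In Cdkn1b-null ovaries at PND8 Padi6 was again first, with 153.2 ± 81.8 CPM per kb (n = 3), and Nlrp2 last, with 1.61 ± 0.797. At 12wk Tle6 led in both genotypes, with 9.89 ± 3.42 CPM per kb (n = 4) in wild type and 4.38 ± 0.383 (n = 3) in Cdkn1b-null ovaries. Neighbouring ranks overlapped throughout the 12wk order in wild type.

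The 4 genes of the core complex did not share 1 time course. Tle6 was at 34.4, 48.1, 23.8 and 31.2 CPM in the wild-type E13.5 libraries, replicates 1 to 4 in order, and at 80.8, 58.2, 77.7 and 54.4 CPM at E18.5. The ranges did not overlap, and Tle6 rose by 0.97 on the log2 scale (SE 0.212, adjusted p = 0.00565, edgeR's quasi-likelihood test with Benjamini-Hochberg adjustment). In this comparison 34.0% of all genes tested were called, that is, had an adjusted p under 0.05, and of the members 4 were tested and 2 called. Khdc3 was the other, with a fall: it was at 0.681, 0.787, 1.21 and 0.795 CPM at E13.5 and at 0.259, 0.1, 0.0 and 0.0417 CPM at E18.5. Its log2 change was -3.08 (SE 0.724, adjusted p = 0.00818), with 14 to 18 counts per library at the earlier age and 0 to 5 at the later. It passed the filter on low counts only through E13.5, so it could only be lower at E18.5. Padi6 was lower without overlap, at 1.21 to 1.72 CPM against 0.194 to 1.08, with a log2 difference of -1.35 (SE 0.564, adjusted p = 0.0899). Ooep differed by -0.12 (SE 0.379, adjusted p = 0.838). Tle6 and Khdc3 were called in all 8 sets that leave out 1 library, replicate 3 of E13.5 included.

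Of the 4 NOD-like receptor members, Nlrp5 and Nlrp4f had at most 2 counts per library at E13.5 and more in some libraries at E18.5. Their relative Nlrp4c had the other order: it was at 5.51 to 9.31 CPM at E13.5 and at 0.0 to 0.901 CPM at E18.5 in wild type, with a log2 change of -4.45 (SE 0.807, adjusted p = 0.00214 by edgeR). Nlrp5 had 1 count in the 4 wild-type E13.5 libraries together and 77 counts at E18.5, a ratio of levels of 69.5 with a counting interval of 12.1 to 2780.0 (95%, counting error only). Nlrp4f had 2 counts and 284 counts, a ratio of 128.2 with an interval of 35.2 to 1063.4. Neither passed the filter on low counts in wild type, so neither was tested there. In Cdkn1b-null ovaries Nlrp5 was at 0 in all 3 E13.5 libraries and at 0.0405, 2.2, 3.32 and 0.716 CPM at E18.5, at least 10.2-fold higher against a floor of 3 counts per library. It passed the filter there through the E18.5 group alone. Nlrp2 was at 0 in all 15 embryonic libraries, which allows up to 3 counts in each, and Nlrp14 and Npm2 had at most 8 and 6 counts in any of them.

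In Cdkn1b-null ovaries 6 members were tested between E13.5 and E18.5, where 30.2% of all genes were called. By edgeR's test Tle6 rose (adjusted p = 0.0166), and Ooep (0.0479) and Padi6 (0.0283) fell. Nlrp5 (0.04) and Nlrp4f (0.0036) were called higher and Khdc3 (0.0205) lower, but these 3 passed the filter only through the age where they were high, so their direction was fixed. Nlrp4f had 1 count in the E13.5 libraries and 268 at E18.5, a ratio of levels of 191.3 with a counting interval of 34.0 to 7582.5. Tle6 was at 30.8, 58.5 and 47.6 CPM at E13.5 and at 70.3 to 94.2 CPM at E18.5, a log2 change of 0.81 (SE 0.201). Ooep changed by -0.87 (SE 0.289), Padi6 by -1.9 (SE 0.547) and Khdc3 by -2.29 (SE 0.611). The calls depended on single libraries: 2 members were called without E13.5 replicate 3, without E13.5 replicate 4, and without E18.5 replicate 2 or 4, and 3 without E18.5 replicate 3. In this comparison alone each E13.5 sample deviated most like the E18.5 sample of its own number. With replicate numbers as a block 4 members were called, the values for Padi6 and Khdc3 becoming adjusted p = 0.0768 and 0.0757.

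Between E18.5 and PND8 the core genes other than Tle6 were called higher in wild type. Nlrp5 went from 0.0, 2.45, 0.0486 and 1.12 CPM in wild type at E18.5 to 100.2, 39.4, 45.9 and 102.8 CPM at PND8, a log2 change of 6.2 (SE 0.826, adjusted p = 0.000102). Ooep went from 2.54, 9.86, 4.61 and 8.29 CPM to 51.5, 28.0, 24.0 and 93.9 CPM (2.86, SE 0.537, adjusted p = 0.000764), and Khdc3 reached 13.8, 3.56, 6.92 and 17.6 CPM (6.62, SE 0.767, adjusted p = 2.15e-05). For all 3 genes every PND8 library lay above every E18.5 library. This held for 8 of the 10 members and for 38.3% of all genes. Tle6 was at 102.3, 55.8, 63.3 and 110.5 CPM at PND8, overlapping its E18.5 levels, and its log2 difference of 0.21 (SE 0.233, adjusted p = 0.423) was within the spread of the libraries. Of the 5 other Tle genes tested 4 rose, Tle1 by 1.23, Aes by 1.08, Tle3 by 1.06 and Tle4 by 0.97, genes that are expressed in many cell types. All 10 members were tested here and 9 were called higher, in a comparison in which 37.6% of all genes were called higher and 36.9% lower. All but Ooep and Tle6 passed the filter only through the PND8 libraries. Nlrp2, Nlrp14, Npm2, Zar1 and Khdc3, with 0 to 6 counts per E18.5 library, could only be higher, so the counts of members are a description. All tests here are by edgeR; counts without scaling by TMM (an alternative added after the data were seen) moved the median of all genes by -0.207 and called 8 members.

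Padi6 was the most abundant member at PND8. It went from 0.208, 0.851, 0.194 and 1.08 CPM in wild type at E18.5 to 326.3, 95.5, 116.6 and 366.0 CPM, a log2 change of 8.46 (SE 0.715, adjusted p = 3.97e-06 by edgeR). Padi6 had 4 to 26 counts per E18.5 library and passed the filter only through the PND8 libraries, so this change is a description. Its relatives in the same family did not share this: of Padi1, Padi2, Padi3 and Padi4, all tested, none rose, and Padi3 (-3.71), Padi1 (-2.73) and Padi2 (-1.07) fell. Padi6 alone supplied between 34.0% and 41.2% of the summed CPM of the 10 members in the wild-type PND8 libraries.

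Of the NOD-like receptor genes, Nlrp14 had 0 to 2 counts per wild-type library at E18.5 and was at 129.1, 36.3, 34.5 and 125.0 CPM at PND8. It could only be higher there, and its fold change is not given because it rests on so few counts. Nlrp2 was at 0 in all E18.5 libraries and at 4.17, 1.37, 1.08 and 3.96 CPM at PND8 in wild type, at least 18.4-fold higher against the floor. In Cdkn1b-null ovaries it was at 2.92, 8.51 and 5.55 CPM, at least 40.0-fold higher. Nlrp4f, already present at E18.5, was at 26.4, 7.23, 8.16 and 31.5 CPM at PND8. Its log2 change of 2.35 (SE 0.909, adjusted p = 0.0398) was the weakest call, the ranges overlapped, and it was called under 5 of the 8 sets that leave out 1 library. Of the 16 other Nlr family genes of a fixed list, 7 passed the filter and all 7 were called higher, among them Nlrp4a, Nlrp4g and Nlrp9b, which were at 0.0 to 0.2 CPM in the E18.5 libraries. Nlrp10, at 0.751 to 1.7 CPM at E18.5, rose by 2.94. Of the 4 relatives of Khdc3, all tested, 3 were called higher: Khdc1b, at 0.0 to 0.375 CPM at E18.5, and Khdc1c and Khdc1a, both at 0 in all E18.5 libraries. The members of these families that passed only through the PND8 libraries had to be higher there.

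Zar1 and Npm2, which act on RNA and chromatin, had few counts at E18.5 and more in every library at PND8. Zar1 had 1 to 6 counts per wild-type library at E18.5 and was at 15.5, 5.89, 7.57 and 21.8 CPM at PND8. Npm2 had 0 to 6 counts and reached 22.7, 8.22, 11.6 and 26.9 CPM. In both genes all PND8 libraries were above all E18.5 libraries, and both passed the filter only through PND8, so they could only be higher there. Within the PND8 wild-type group replicates 1 and 4 were the higher pair and replicates 2 and 3 the lower pair for these genes and for the other 8.

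The same step in Cdkn1b-null ovaries called 9 members higher, where 38.9% of all genes were called higher. Khdc3, Zar1, Npm2, Nlrp14 and Nlrp2, with 0 to 8 counts per E18.5 library, again passed only through PND8 and could only be higher. Padi6 rose by 9.03 (SE 0.477), Nlrp5 by 6.05 (SE 0.738), Ooep by 3.0 (SE 0.29) and Nlrp4f by 3.31 (SE 0.72). For all 9 genes the ranges did not overlap, which held for 40.4% of all genes in that direction. Tle6 differed by 0.5 (SE 0.252, adjusted p = 0.104 by edgeR). The wild-type and Cdkn1b-null steps were not tested against each other.

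Between PND8 and 12wk levels fell in both genotypes. In wild type 8 members were called lower, where 14.3% of all genes were called lower. Khdc3, Nlrp2 and Nlrp4f passed the filter only through PND8. Padi6 changed by -4.28 (SE 0.896), Ooep by -3.98 (SE 0.676), Nlrp5 by -3.91 (SE 0.746), Npm2 by -3.3 (SE 0.596), Nlrp4f by -3.16 (SE 0.967), Nlrp14 by -2.97 (SE 0.888), Khdc3 by -2.87 (SE 0.833) and Tle6 by -1.36 (SE 0.304). Zar1 differed by -2.04 (SE 0.748, adjusted p = 0.0688 by edgeR) and Nlrp2 by -1.3 (SE 1.07, adjusted p = 0.4), and both overlapped between the ages, as did Khdc3. The other 7 did not overlap, against 21.0% of all genes in that direction. Without 12wk replicate 3 all 10 were called. The count was 5 without PND8 replicate 1, PND8 replicate 4, 12wk replicate 1 or 12wk replicate 4, and 5 with no filter on low counts.

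In Cdkn1b-null ovaries all 10 members were called lower at 12wk than at PND8, with adjusted p from 0.000743 to 0.00224 by edgeR, where 14.3% of all genes were called lower. Ooep, Padi6, Tle6, Npm2 and Nlrp14 passed the filter through either age, and the other 5 only through PND8. No range overlapped, which held for 28.7% of all genes in that direction. Padi6 went from 243.6, 625.4 and 295.0 CPM in replicates 1, 3 and 4 to 0.725, 2.49 and 1.76 CPM (log2 change -7.73, SE 0.6). Nlrp5 went from 86.7, 146.2 and 80.6 CPM to 0.213, 0.73 and 0.759 CPM (-7.36, SE 0.439). At 12wk the mean level was 0.427% of the PND8 mean for Padi6, 0.467% for Nlrp14 and 0.543% for Nlrp5, and 11.6% for Tle6, whose loss was the smallest. Nlrp2 had 588 counts in the 3 PND8 libraries and 3 at 12wk, a ratio of levels of 161.9 with a counting interval of 55.1 to 787.5. Leaving out each library in turn left all 10 called. CPM is a share of each library. In bulk libraries like these, the number of oocytes, RNA per oocyte and RNA from other cells therefore cannot be told apart, here and in every other comparison.

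At 12wk the mean levels of the 10 genes were lower in Cdkn1b-null than in wild-type ovaries, and none of the differences passed the threshold by edgeR. Padi6 was at 3.03, 2.08, 29.2 and 10.1 CPM in wild-type replicates 1 to 4 and at 0.725, 2.49 and 1.76 CPM in Cdkn1b-null replicates 1, 3 and 4. Nlrp14 was at 2.65, 1.67, 27.2 and 8.0 CPM against 0.341, 1.03 and 0.932 CPM. Tle6 was at 24.2, 20.9, 44.5 and 32.6 CPM against 13.7, 12.3 and 14.6 CPM. Wild-type replicate 3 was the highest and replicate 4 the second highest of all 7 libraries in all 10 genes. For Padi6 the low end of wild type lay within the Cdkn1b-null range, whereas for Nlrp14 and Tle6 the genotypes did not overlap.

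The other core genes had the same pattern of libraries. Nlrp5 was at 1.9, 0.756, 11.2 and 4.39 CPM in wild type and 0.213, 0.73 and 0.759 CPM in Cdkn1b-null ovaries, so that replicate 2 of wild type lay just under the highest Cdkn1b-null library. Ooep was at 1.78, 0.913, 6.67 and 2.52 CPM against 0.384, 1.3 and 0.69 CPM. Khdc3 was at 0.263, 0.378, 3.57 and 1.21 CPM against 0.128, 0.298 and 0.138 CPM. In these 3 genes 1 wild-type library overlapped the Cdkn1b-null range. For Zar1, at 1.25, 0.945, 8.08 and 1.43 CPM against 0.213, 0.649 and 0.483 CPM, the genotypes did not overlap. Npm2 was at 0.846, 0.787, 3.66 and 1.4 CPM against 0.554, 0.514 and 0.518 CPM, also without overlap. Nlrp4f was at 0.321, 0.252, 5.7 and 1.52 CPM against 0.0, 0.298 and 0.104 CPM and overlapped. Nlrp2 had 3, 1, 103 and 24 counts in the wild-type libraries and 0, 3 and 0 in the Cdkn1b-null libraries, 131 against 3 in all. The ratio of its levels was 30.0, with a counting interval of 10.0 to 147.4 that leaves out the spread between libraries, and 103 of the 131 counts came from wild-type replicate 3.

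**Figure D2:**
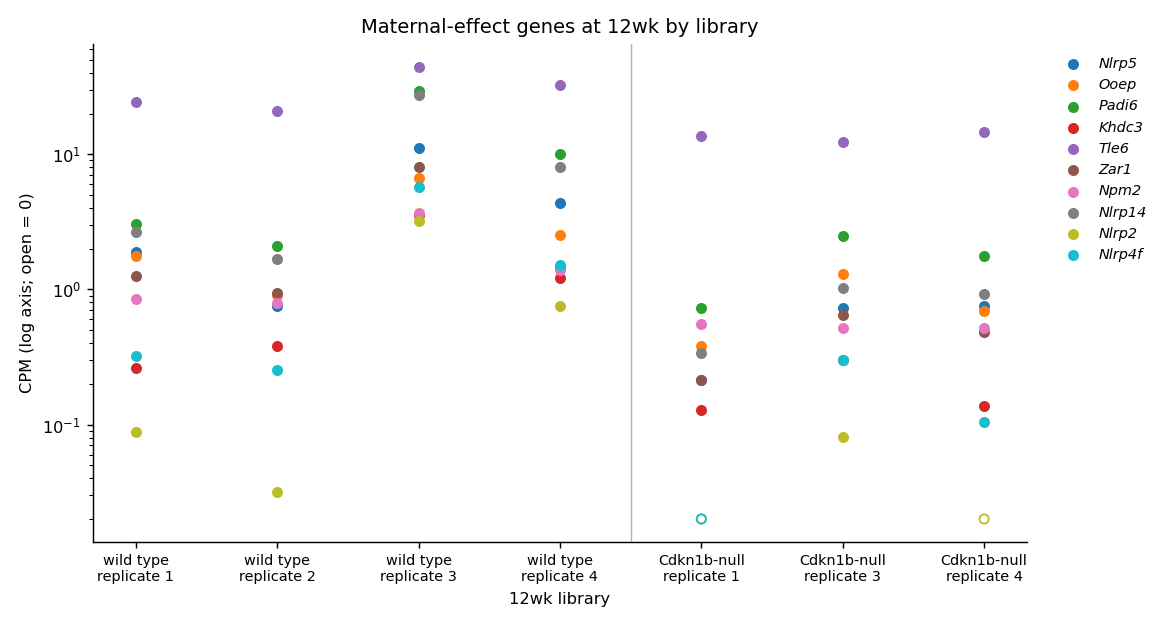
CPM on a log axis of each gene (colour) in the 7 libraries at 12wk; open points are libraries at 0. Wild-type replicate 3 holds the highest point of all 10 genes and replicate 4 the second highest, while Tle6, the top row, separates the 4 wild-type libraries (20.9 to 44.5 CPM) from the 3 Cdkn1b-null libraries (12.3 to 14.6 CPM).

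By edgeR's test 9 members were tested at 12wk and 0 were called, and all 9 were lower with an unadjusted p under 0.05, which held for 4.67% of all genes. Nlrp5, Khdc3, Zar1 and Nlrp4f passed the filter only through wild type, so this count is a description. Of all genes tested 0.0115% were called. The log2 differences were -3.74 (SE 1.39) for Nlrp4f, -3.66 (SE 1.07) for Nlrp14, -2.98 (SE 0.96) for Nlrp5, -2.81 (SE 1.01) for Khdc3, -2.74 (SE 0.981) for Padi6 and -2.68 (SE 0.907) for Zar1. They were -1.9 (SE 0.733) for Ooep, -1.66 (SE 0.615) for Npm2 and -1.18 (SE 0.268) for Tle6, and the adjusted p ran from 0.351 for Tle6 to 0.482. Without wild-type replicate 3, 7 genes were tested, with Nlrp14 at -2.43, Nlrp5 at -2.05, Padi6 at -1.64, Zar1 at -1.43, Ooep at -1.15, and Tle6 and Npm2 at -0.95 each. The groups did not overlap in 4 of the 9 tested genes (Tle6, Zar1, Npm2 and Nlrp14), against 3.99% of all genes in the same direction. DESeq2, as an alternative, called 4 members lower, Nlrp14 (adjusted p = 0.0023), Tle6 (0.00364), Nlrp5 (0.0261) and Padi6 (0.0352), and 326 genes in all, while limma-voom called 0.

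At PND8 the order of the genotypes was the opposite, with differences within the spread of the libraries. Padi6 was at 326.3, 95.5, 116.6 and 366.0 CPM in wild type and 243.6, 625.4 and 295.0 CPM in Cdkn1b-null ovaries. Nlrp14 was at 129.1, 36.3, 34.5 and 125.0 CPM against 107.1, 256.2 and 128.9 CPM, and Tle6 at 102.3, 55.8, 63.3 and 110.5 CPM against 84.5, 173.1 and 92.1 CPM. All ranges overlapped. Cdkn1b-null replicate 3 was the highest library in 9 of the 10 genes, and wild-type replicate 4 in Ooep. All 10 members were tested and 0 were called by edgeR, DESeq2 or limma-voom, and 0 had an unadjusted p under 0.05 by edgeR, where 0.349% of all genes were called. The log2 differences were positive for 9 genes, from 0.47 (SE 0.358) for Tle6 to 1.08 (SE 0.57) for Nlrp2, and -0.04 (SE 0.55) for Ooep, with a median of 0.84 and adjusted p from 0.419 to 0.981. The median was 0.35 without Cdkn1b-null replicate 3, 1.19 without wild-type replicate 4, and 0.52 when replicate numbers entered as a block.

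Before birth no genotype difference was detected. At E13.5 4 members were tested and 0 called by edgeR, DESeq2 or limma-voom, where the share called over all genes was 0.00606%. None of the 4 had an unadjusted p under 0.05. Ooep was at 7.76, 6.8, 5.68 and 7.12 CPM in wild type and 6.39, 11.3 and 14.5 CPM in Cdkn1b-null ovaries, a log2 difference of 0.61 (SE 0.286, adjusted p = 0.988). Padi6 was at 1.59, 1.46, 1.21 and 1.72 CPM against 0.799, 4.67 and 2.5 CPM (0.79, SE 0.531), Tle6 differed by 0.37 (SE 0.263) and Khdc3 by -0.35 (SE 0.435). Cdkn1b-null replicate 3, highest in Padi6 and Tle6, also had the highest summed level of 10 meiotic germ cell markers, 736.0 CPM against 151.2 to 257.3 CPM in the other 6 libraries, and the part of germ cells in these levels was not tested. At E18.5 5 members were tested and 0 called by the same 3 tools, where the share called over all genes was 4.99%, and 0 of the 5 were under 0.05 before adjustment by edgeR. Tle6 differed by 0.2 (SE 0.146), Padi6 by 0.23 (SE 0.56) and Ooep by -0.15 (SE 0.368). Nlrp5 differed by 0.73 (SE 1.29) and Nlrp4f by -0.07 (SE 1.05), and their large errors came with the spread between libraries given below.

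**Figure D3:**
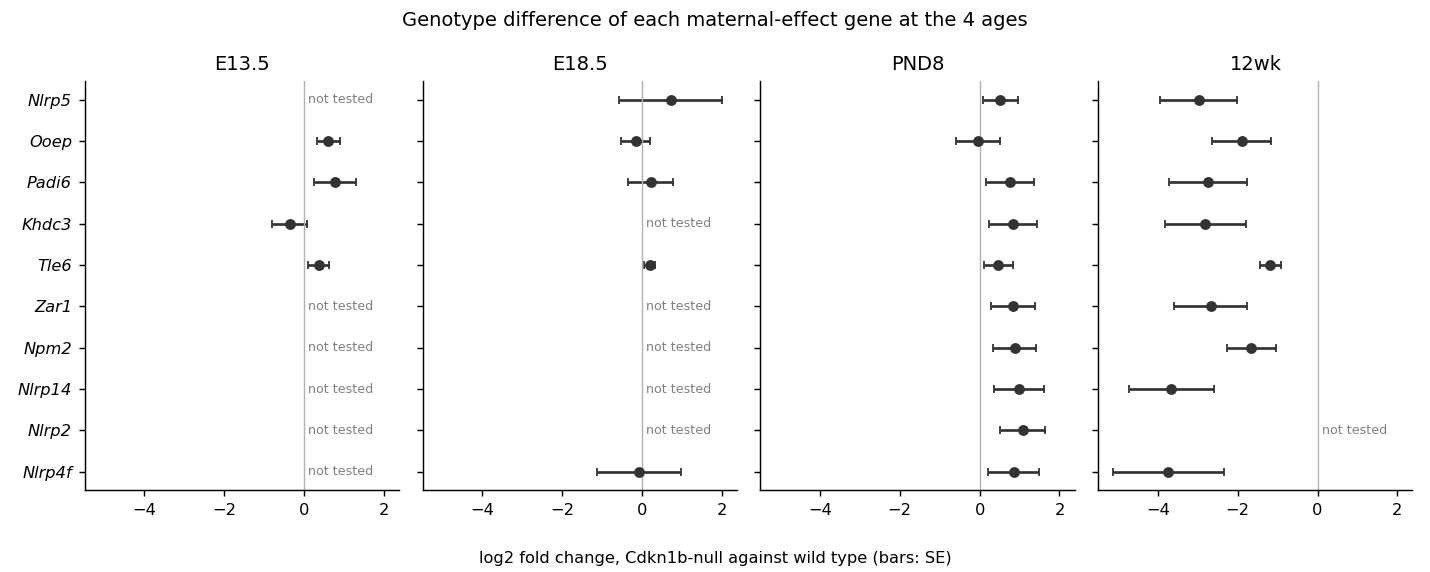
Log2 fold change of Cdkn1b-null against wild type for each gene at the 4 ages, with bars of 1 SE; genes that did not pass the filter on low counts are marked as not tested. Points run from -0.35 to 0.79 for the 4 genes tested at E13.5 and from -0.15 to 0.73 for the 5 tested at E18.5, lie above 0 for 9 of 10 genes at PND8 and below 0 for all 9 tested at 12wk, and 0 were called at any age by edgeR.

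The change of the genotype difference between PND8 and 12wk was tested directly in the 14 libraries of those ages. It was negative in all 10 genes, from -1.65 (SE 0.464) for Tle6 to -5.91 (SE 1.88) for Nlrp2, with a median of -3.46 against -0.01 over all genes. The Nlrp2 value rests on 131 counts in wild-type and 3 in Cdkn1b-null libraries at 12wk. Leaving out 1 library gave -9.22 to -4.13 for Nlrp2. By edgeR 9 genes had an unadjusted p under 0.05, which in the same direction held for 5.37% of all genes, and 0 were called, with adjusted p from 0.25 to 0.519, where 0.0107% of all genes were called. Limma-voom also called 0, and DESeq2 called 3, Nlrp14 (adjusted p = 0.0222), Tle6 (0.0271) and, on those few 12wk counts, Nlrp2 (0.0292). This comparison uses the same libraries as those within each age.

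The zona pellucida genes Zp1, Zp2 and Zp3, which encode the egg coat, were set beside the 9 members other than Tle6, a comparison chosen after the values were seen. Over the 14 libraries of PND8 and 12wk the summed CPM of the 9 members ran from 2.56 to 1275.2, a range of 498.1-fold, and that of the 3 zona genes from 1.7 to 570.6. The ratio of the sums stayed between 1.5 and 3.31, with a median of 2.36. Its median was 2.57 in wild type and 2.23 in Cdkn1b-null ovaries at PND8, and 2.67 and 2.44 at 12wk, with overlapping ranges at each age. At E18.5 the ratio was higher in the 2 libraries with enough zona counts to give one, 4.81 in wild-type replicate 2 and 7.74 in Cdkn1b-null replicate 3. At 12wk wild-type replicate 3 had 98.4 CPM of the 9 members and 36.1 CPM of zona genes, and Cdkn1b-null replicate 1 had 2.56 and 1.7 CPM. With Tle6 included, the members summed to 792.0 CPM beside 318.7 CPM of zona genes in wild-type replicate 1 at PND8. In wild-type replicate 2 at 12wk they summed to 28.7 CPM beside 2.36 CPM. The narrow range of the ratio therefore holds only for the sum of the members without Tle6, and not for each of these genes. Zar1 alone was at 15.5 CPM beside 318.7 CPM of zona genes in wild-type replicate 1 at PND8. In wild-type replicate 2 at 12wk Zar1 was at 0.945 CPM beside 2.36 CPM.

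**Figure D4:**
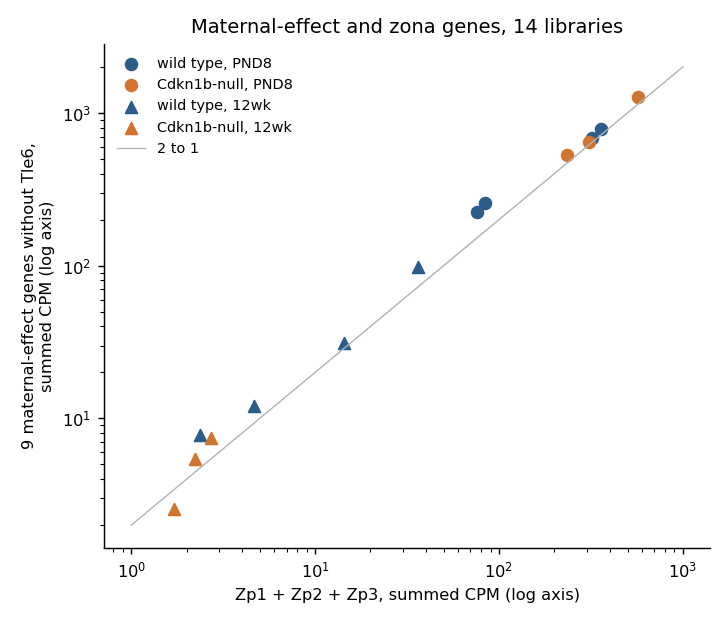
Summed CPM of the 9 maternal-effect genes other than Tle6 against summed CPM of Zp1, Zp2 and Zp3, both on log axes, in the 14 libraries of PND8 (circles) and 12wk (triangles); blue is wild type, orange Cdkn1b-null, and the grey line marks 2 to 1. Most libraries lie above the line, with ratios from 1.5 to 3.31 across a 498.1-fold range of the sum of these 9 members.

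A fixed list of 20 other oocyte markers changed in both directions between E18.5 and PND8. In wild type 19 were tested, of which 9 were called higher and 7 lower, against 37.6% and 36.9% of all genes. Oas1d and Zp1 were at 0.0 to 0.451 CPM at E18.5 and at 6.43 to 44.7 CPM at PND8, while Dazl (-5.61) and Ddx4 (-3.1), germ cell genes that are active before birth, fell. Between PND8 and 12wk 11 of 20 were called lower in wild type and 18 of 20 in Cdkn1b-null ovaries, against 14.3% of all genes in each genotype. Markers that passed the filter only through PND8 had to be highest there, so the counts of both steps are a description. Between genotypes at 12wk, of 15 genes tested, 13 were lower in Cdkn1b-null ovaries. By edgeR 10 of the 13 had an unadjusted p under 0.05, against 4.67% of all genes in that direction. Of these, Zp1, Nobox, Oosp1, H1foo, Oas1d and Tcl1 passed the filter only through wild type, so this count is a description. None of the 15 was called, where 0.0115% of all genes were called. Gdf9, which encodes a growth factor secreted by the oocyte, was at 4.38, 2.52, 33.9 and 8.09 CPM in wild type and 1.88, 2.71 and 2.55 CPM in Cdkn1b-null ovaries. Kit, a receptor gene that other ovarian cells also express, went the other way, at 24.4 to 45.4 CPM against 79.5 to 102.3 CPM, with a log2 difference of 1.26 (SE 0.217, unadjusted p = 0.000463 and adjusted p = 0.213 by edgeR). It raised the summed level of the list to 97.1 to 129.4 CPM in Cdkn1b-null ovaries, against 51.3 to 198.0 CPM in wild type. Summed markers of other cells also differed between these libraries: 10 theca and luteal genes ran from 3962.7 CPM in wild-type replicate 3 to 15403.5 CPM in replicate 2, against 6967.8 to 10534.6 CPM in Cdkn1b-null ovaries. The 10 granulosa genes ran from 4973.7 to 7709.4 CPM against 3246.5 to 7532.6 CPM, and the 6 erythroid genes from 86.0 to 161.7 CPM against 223.6 to 809.2 CPM, with none of these lists' genes at 0 throughout either group. The part of these cells in the 12wk differences was not tested.

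At E18.5 Nlrp5 and Nlrp4f divided the libraries across genotypes. Nlrp4f was at 0.83, 7.76, 0.194 and 4.54 CPM in wild-type replicates 1 to 4 and at 0.405, 4.57, 5.72 and 2.48 CPM in Cdkn1b-null replicates 1 to 4. Nlrp5 was at 0.0, 2.45, 0.0486 and 1.12 CPM and at 0.0405, 2.2, 3.32 and 0.716 CPM. Wild-type replicates 1 and 3 and Cdkn1b-null replicate 1 were the lowest 3 in both genes. They were also the lowest 3 in Figla, Nobox, Sohlh1 and Lhx8, genes of oocyte transcription factors; Nobox was at 5.91, 7.97 and 2.91 CPM in them and at 11.6 to 40.6 CPM in the other 5. The summed CPM of 6 erythroid genes was 24642.0, 33171.6 and 24356.5 in these 3 libraries and 1576.8 to 12875.2 in the others, and its part in the division was not tested. Tle6 did not follow it: it was at 80.8, 77.7 and 76.2 CPM in the 3 libraries and at 54.4 to 94.2 CPM in the others. Ooep and Padi6 followed it in part. Both were lowest in wild-type replicates 1 and 3, Ooep at 2.54 and 4.61 CPM and Padi6 at 0.208 and 0.194 CPM. At 5.47 and 0.729 CPM in Cdkn1b-null replicate 1, they did not have that library among their lowest 3. Other oocyte markers were mixed. Zp2 followed the division, but Gdf9 was highest of all E18.5 libraries in wild-type replicate 3 (8.02 CPM). Dazl was lower in Cdkn1b-null replicate 4 (75.0 CPM) than in wild-type replicates 1 and 3 (82.8 and 77.2 CPM). Without wild-type replicate 2 the genotype difference of Nlrp5 was 1.89, and without Cdkn1b-null replicate 3 it was 0.05.

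**Figure D5:**
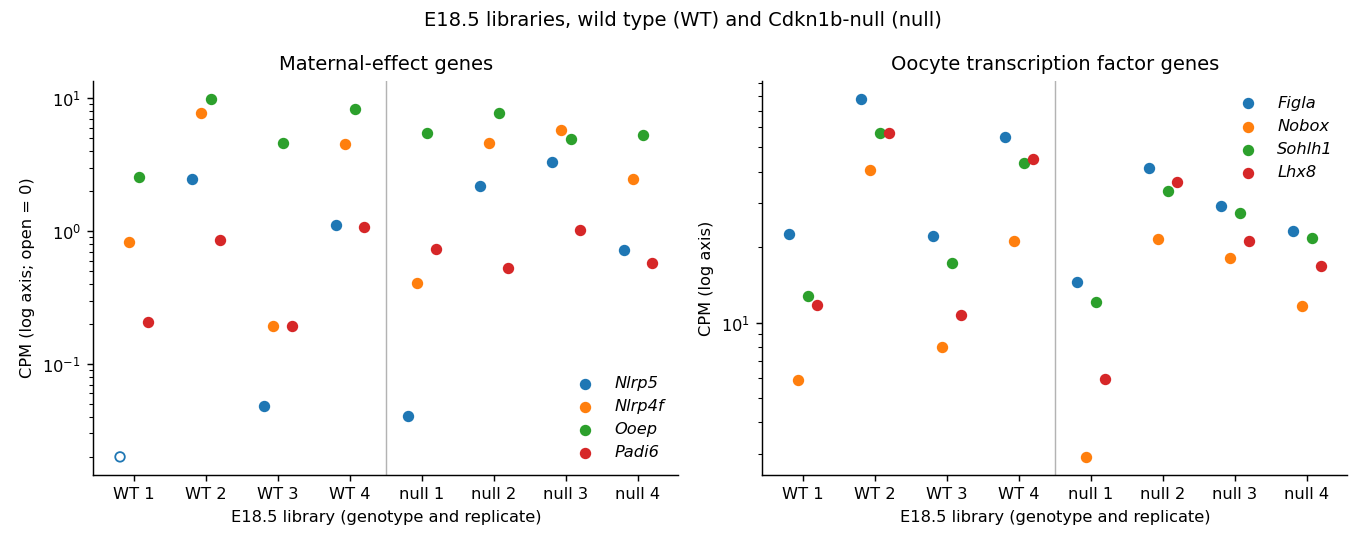
CPM on log axes in the 8 E18.5 libraries of 4 maternal-effect genes (left; the open point is at 0) and of 4 genes of oocyte transcription factors (right); WT is wild type, null is Cdkn1b-null, and numbers are replicates. In WT 1, WT 3 and null 1, Nlrp5 and Nlrp4f are at most 0.83 CPM and Nobox at most 7.97 CPM, below all other libraries. Ooep and Padi6 are also lowest in WT 1 and WT 3, but null 1 is not among their lowest 3.

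A fixed list held 28 other genes with known maternal effects. Between E18.5 and PND8 in wild type 25 were tested, 11 were called higher and 5 lower, against 37.6% and 36.9% of all genes, with a median log2 change of -0.14 against 0.01 over all genes. Those called with the smallest p were Dnmt1, the maintenance DNA methyltransferase (2.45), its partner Uhrf1 (2.03), Ctcf (1.85) and the splicing factor gene Bcas2, which fell by 1.73 on the log2 scale. Between PND8 and 12wk 8 of 27 fell and 0 rose in wild type, where 14.3% of all genes were called lower, among them Dppa3, also called Stella (-4.69), and Uhrf1 (-1.25). In Cdkn1b-null ovaries 12 of 27 were called lower, also against 14.3%, among them Dppa3 (-7.41), Kpna7 (-7.08) and Btg4 (-4.81). At 12wk 25 were tested between genotypes and 0 called by edgeR, with a median of -0.03, where 0.0115% of all genes were called. By edgeR 4 had an unadjusted p under 0.05, against 9.63% of all genes, and 3 of them were lower, against 4.67%. Kpna7, at 0.0345 to 0.108 CPM in Cdkn1b-null ovaries, passed the filter only through wild type, so its direction was fixed. Many genes of this list are also expressed outside the oocyte, and the list was not tested against the 10.

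The genes whose profile over all 29 libraries lay closest to the mean profile of the 10 members were sought among 20269 genes. Closeness was the root mean square difference of centred log2 CPM. The 6 closest were Fbxw27 (0.58), Kpna7 (0.6), Oas1h (0.67), Olfr976 (0.68), Fbxw16 (0.69) and Fbxw20 (0.69), against a median of 2.61 over all genes. The members themselves lay from 0.54 for Nlrp2 to 2.18 for Tle6 from their own mean. Kpna7, an oocyte importin gene, was at 5.34 ± 3.3 CPM (SD, n = 4) in wild type and 9.9 ± 4.9 (n = 3) in Cdkn1b-null ovaries at PND8, and at 1.63 ± 2.19 and 0.0618 ± 0.0404 CPM at 12wk. Fbxw27, of the F-box and WD repeat genes, was at 2.04 ± 1.49 and 3.84 ± 2.3 CPM at PND8 and at 0.545 ± 0.744 and 0.0205 ± 0.0182 CPM at 12wk. The 6 had few or no counts before birth, as did several of the members, so shared zeros enter the measure.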

How the data were processed

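The authors deposited 1 table of estimated counts per gene, expected counts made with RSEM per the file headers. The submitters' processing notes name FastQC 0.11.5, Trim Galore, STAR 2.5.2 and RSEM 1.3.0. Build, annotation and strandedness are not given in the sources used here. Of the values above 0, 31.4% were not whole, and all were rounded.

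Each comparison was fitted on its own groups with edgeR 4.0.16 (R 4.3.3): TMM normalization, removal of low genes with filterByExpr (at least 10 counts, 15 in total), robust glmQLFit and glmQLFTest, and Benjamini-Hochberg adjustment over all genes tested (threshold 0.05). SE is the log2 fold change over the square root of F. Printed CPM uses TMM over all 29 libraries. Symbols were matched for 51633 of 51912 IDs. The fit was tested on simulated data. The simulated spread between libraries was smaller than that of most members in wild type at 12wk, so this test does not cover them. DESeq2 1.42.0 and limma 3.58.1 served as alternatives.

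The 10 members and the gene lists were chosen with earlier results of these data known. Besides the members, the text names Cdkn1b, up to 4 called genes per list and comparison by smallest p, and the 6 closest profiles; any other gene was chosen after its values were seen. Replicates came from sample titles, and nothing says they were separate animals, so p-values measure only the spread between samples. Only in the Cdkn1b-null step from E13.5 to E18.5 was the same-numbered sample the closest in deviation in every pair. There r ran from 0.128 to 0.23 over 3 pairs, from the data and not the labels. Same-numbered samples also had r above 0 in every pair between genotypes at E18.5 (0.091 to 0.24) and at 12wk (0.037 to 0.193). The same held for the Cdkn1b-null step from E18.5 to PND8 (0.002 to 0.026).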

Additional observations from a re-analysis of the deposited data

Results flagged for a closer look

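Zar1 in wild-type ovaries at 12wk was flagged because 1 library lay far from the others: replicate 3 was at 8.08 CPM, and its gap to the next library was 0.932 of the range of the group. Among 41 groups of 4 libraries checked, 1 was flagged, and chance flags about 1 in 20. The cause was not tested.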

How the results depend on the processing

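Counts of members called differed by more than 1.5 times from those reported in these settings. DESeq2 called 4 at 12wk against 0 and 3 for the change of the genotype difference against 0. From E13.5 to E18.5 in wild type, no filter on low counts called 4 and 1 fit over all 29 samples called 4, against 2; from PND8 to 12wk no filter called 5 against 8. In the Cdkn1b-null step from E13.5 to E18.5, 1 fit over all 29 samples called 3 against 6. Leaving out 1 replicate gave 5 to 10 calls in the wild-type step from PND8 to 12wk and 2 to 5 in the Cdkn1b-null step from E13.5 to E18.5. The cause was not tested.

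Reversed signs were all of differences that were not called. At E18.5 Ooep was at 0.19 and Nlrp4f at 1.95 by limma-voom, and Nlrp4f at 0.09 with the replicate block; at PND8 Ooep was at 0.03 by limma-voom. Leaving out 1 replicate, at E18.5 Ooep ran from -0.42 to 0.15, Padi6 from -0.05 to 0.72 and Nlrp4f from -0.47 to 0.77. Ooep ran from -0.41 to 0.47 at PND8, and from -0.42 to 0.15 in the wild-type step from E13.5 to E18.5.

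Over all genes, the genotype difference was called for 814 genes at E18.5, 2 at 12wk, 62 at PND8 and 1 at E13.5. DESeq2 called 1685 genes at E18.5, 326 at 12wk, 824 at PND8, 65 at E13.5 and 308 for the change. Limma-voom called 1670 genes at E18.5, 7 at 12wk, 104 at PND8 and 0 at E13.5. No filter called 258 at PND8 and 12 at 12wk, and 1 fit over all samples called 59 at E13.5, 0 at PND8 and 68 at 12wk. Counts without TMM scaling gave 21 at PND8 and 1 at 12wk. The replicate block called 8 at PND8, 10 at 12wk and 10 for the change, where limma-voom called 4 and 1 fit over all samples 5 against 2; the block left the members' counts in the genotype comparisons at 0, and beyond the values given in the report it changed no call of a member. Depth limits Nlrp2 at 12wk and most members, Nlrp2 among them, before birth, where counts per library were mostly under 10.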
